A study of Bos taurus with 16 samples.

Results

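The microRNAs miR-331-3p, miR-328-3p, miR-197-3p and miR-652-3p are described here in the bovine corpus luteum across early pregnancy. They are 4 of the 204 probes in the deposited table, matched by name, and all 4 were found. They were chosen by their normalized counts in these samples, which were higher on day 23 or sloped upward over days, so their differences between days are given as a description and not as a test. The corpora lutea came from pregnant cattle (Bos taurus) bred naturally and then by artificial insemination, and were collected on day 14, day 17, day 20 or day 23, with 4 samples per day. All 16 animals were pregnant and no other treatment is labelled; there was no group of cyclic cattle, and breed and age are not labelled. MicroRNAs were counted with NanoString probes, which are colour-coded and read without amplification, in 2 runs that each held 2 samples of every day. The tissue was taken whole, so a different number of cells of one type and a different amount of a miRNA per cell cannot be told apart.

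A miRNA is a short RNA that guides the Argonaute protein to messenger RNAs, mostly through a seed near its 5′ end, and lowers their translation or stability. The corpus luteum forms from the ovulated follicle and secretes progesterone, and in cattle it is kept through early pregnancy because interferon tau from the conceptus prevents its regression. In human cells miR-331-3p represses the receptor tyrosine kinase ERBB2, miR-328-3p represses the drug transporter ABCG2, and miR-197-3p represses the tumour suppressor TUSC2. The cattle assembly ARS-UCD2.0 has a miRNA gene of the same number for each of the 4, on 4 different chromosomes, and in RefSeq none has another miRNA gene within 10000 bases. MIR328 overlaps ELMO3, an engulfment and cell motility gene, MIR197 overlaps AMPD2, an AMP deaminase, and MIR652 overlaps TMEM164. MIR331 overlaps an uncharacterised coding locus between VEZT and METAP2. The 4 are thus single genes scattered over the genome, not members of one cluster. Only the names and neighbours were taken from the assembly.

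miR-331-3p had the highest counts of the 4, as far as probes of unequal efficiency can be compared, and was the only one whose day 23 and day 14 samples did not overlap. On day 14 its normalized counts were 455 and 576 in run 1 and 467 and 819.8 in run 2. On day 17 they were 593 and 689 in run 1 and 1056 and 380.1 in run 2. Day 17 replicate 4 was the lowest of all 16 samples, in the same run and day as one of the higher ones. On day 20 the counts were 529.9 and 770.7 in run 1 and 1195 and 694 in run 2. On day 23 they were 866 and 1424 in run 1 and 838 and 2383 in run 2. The 2 highest samples of the series were therefore both of day 23, 1 from each run, while the other 2 day 23 samples lay below the highest samples of days 17 and 20. The daily means, each ± SD over 4 samples, were 579.7 ± 169, 679.5 ± 282, 797 ± 283 and 1378 ± 722. On the log2 scale, day 23 was above day 14 by 1.15 (SE 0.35, 2.22-fold), above day 17 by 0.98 (SE 0.35) and above day 20 by 0.72 (SE 0.35).

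Between neighbouring days, miR-331-3p differed by 0.18 log2 units from day 14 to day 17, 0.26 from day 17 to day 20 and 0.72 from day 20 to day 23, beside an SD of 0.65 between samples of the same day and run. The last step was above that SD with all samples but rested on single ones, since it was 0.43 without day 23 replicate 4, 0.60 without day 23 replicate 2, 0.58 without day 20 replicate 1 and 0.61 without day 20 replicate 4. The difference of day 23 from day 14 was 1.12 (SE 0.32) with run 1 alone and 1.19 (SE 0.64) with run 2 alone. The gap between the runs, 0.07, was -0.68 without day 23 replicate 4 and 0.83 without day 23 replicate 3. The slope was 0.12 log2 units per day over both runs.

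miR-328-3p had the lowest counts of the 4. On day 14 it was at 23.8 and 39.8 in run 1 and 32.0 and 50.4 in run 2. On day 17 it was at 29.6 and 23.3 in run 1 and 65.0 and 36.04 in run 2. On day 20 it was at 19.2 and 50.4 in run 1 and 79.4 and 46.5 in run 2, so that the lowest value of the series and one of the higher ones fell on the same day. On day 23 it was at 43.7 and 65.9 in run 1 and 66.3 and 178 in run 2. The daily means were 36.5 ± 11.3 (SD, n = 4), 38.5 ± 18.4, 48.9 ± 24.6 and 88.4 ± 60.4. Day 23 and day 14 overlapped when both runs were put together, since the lowest day 23 sample was below the highest day 14 sample. Within each run, both day 23 samples were above both samples of day 14 and of day 17, in run 2 narrowly so, at 66.3 against 65.0 on day 17. All run 1 values were low, as set out below against probes without a bovine gene. Day 23 was above day 14 by 1.10 log2 units (SE 0.36, 2.14-fold), above day 17 by 1.08 (SE 0.36) and above day 20 by 0.79 (SE 0.36). With run 1 alone the difference from day 14 was 0.78 (SE 0.40), and with run 2 alone 1.41 (SE 0.55). The step from day 20 to day 23, 0.79, was above the SD of 0.63 within day and run. It rested on single samples, being 0.50 without day 23 replicate 4 and 0.52 without day 20 replicate 1.

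miR-197-3p did not slope steadily, and with both runs together day 23 stood against 3 earlier days of similar mean level. On day 14 it was at 148 and 203 in run 1 and 164 and 226 in run 2. On day 17 it was at 97.7 and 132 in run 1 and 420.2 and 151 in run 2. On day 20 it was at 62.0 and 129.7 in run 1 and 313 and 204 in run 2. Day 20 replicate 1 was the lowest sample of the series. On day 23 it was at 127 and 306 in run 1 and 295 and 714 in run 2. The daily means were 185 ± 35.4 (SD, n = 4), 200.3 ± 148, 177 ± 107 and 360.4 ± 249. In run 1 the daily means went down from 175.3 to 115 and 95.8 before 216 on day 23, and in run 2 they were 195, 286, 258 and 504. The log2 difference of day 20 from day 14 was -0.94 (SE 0.36) in run 1 alone and 0.39 (SE 0.59) in run 2 alone. Day 23 replicate 1 lay below both day 14 samples of its run, so the groups overlapped also within run 1. In order of mean log2 level the days ran 20, 17, 14 and 23, and only the step from day 14 to day 23, of 0.72, was larger than the SD of 0.68 within day and run. That step was 0.45 without day 23 replicate 4, 0.53 without day 23 replicate 2, 0.48 without day 14 replicate 3 and 0.65 without day 14 replicate 4, below the SD each time. Day 23 was above day 14 by 0.72 (SE 0.40, 1.64-fold), with 0.19 (SE 0.36) in run 1 alone and 1.25 (SE 0.59) in run 2 alone. The difference was larger against day 20, at 0.99 (SE 0.40), and was 0.83 (SE 0.40) against day 17.

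The mean log2 level of miR-652-3p followed the order of the days in both runs, with small steps in run 2, while the arithmetic daily means followed it in run 1 alone. On day 14 it was at 103 and 130.2 in run 1 and 185 and 725 in run 2. On day 17 it was at 188 and 99.0 in run 1 and 483 and 307 in run 2. On day 20 it was at 199 and 211 in run 1 and 444 and 417 in run 2. On day 23 it was at 241 and 358 in run 1 and 413 and 775 in run 2. Day 14 replicate 4 was the second highest sample of the series, close to the highest, day 23 replicate 4, although day 14 had the lowest mean log2 level. The daily means were 286 ± 295 (SD, n = 4), 269 ± 166, 317 ± 131 and 447 ± 230.3. In run 1 they were 117, 143, 205 and 299, and in run 2 they were 455, 395, 430.1 and 594, where the first mean holds day 14 replicate 4. On the log2 scale the steps between neighbouring days were 0.23, 0.58 and 0.52 in run 1 and 0.07, 0.16 and 0.40 in run 2. Day 23 was above day 14 by 0.98 log2 units (SE 0.36, 1.97-fold), with 1.33 (SE 0.34) in run 1 alone and 0.62 (SE 0.62) in run 2 alone. It was above day 17 by 0.83 (SE 0.36) and above day 20 by 0.46 (SE 0.36). Over both runs none of the 3 steps between neighbouring days reached the SD of 0.63 within day and run, although the last, 0.46, was 0.69 without day 23 replicate 3.

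**Figure D1:**
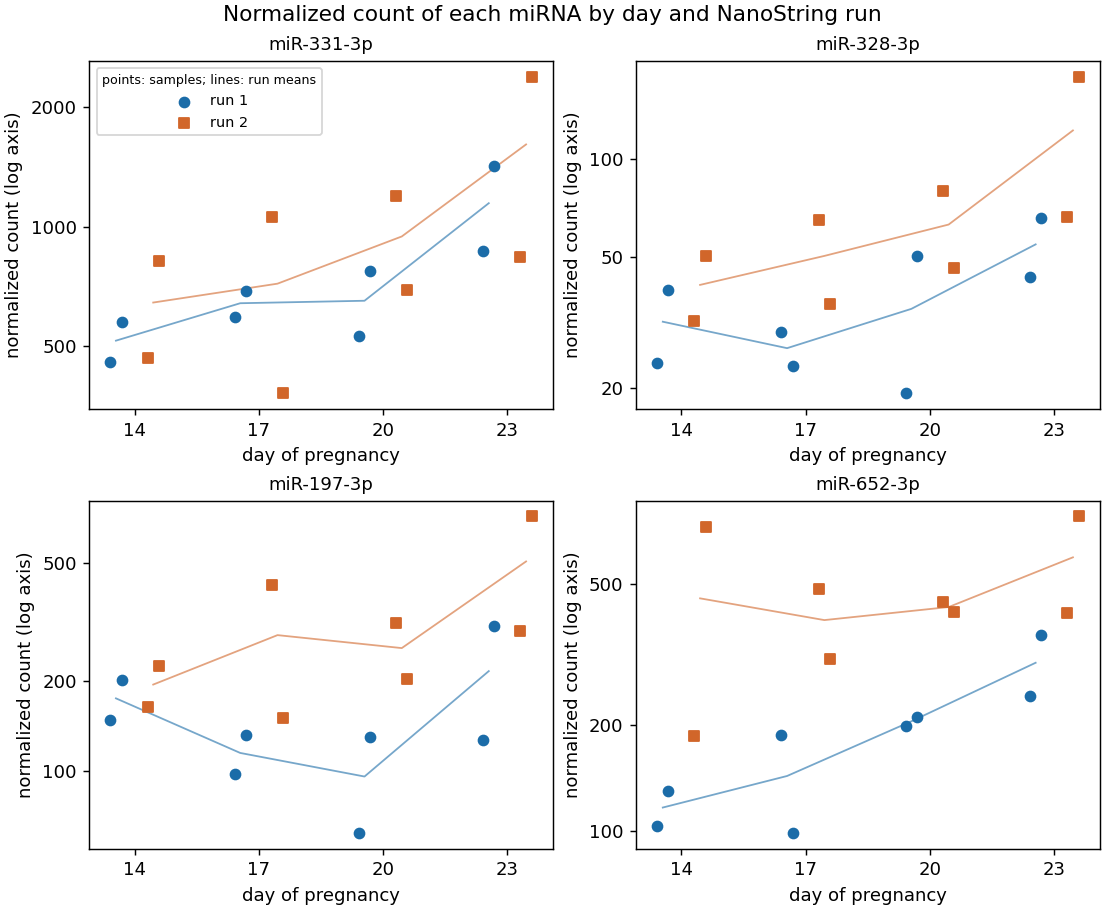
Normalized counts of the 4 miRNAs in each of 16 samples on a log axis, by day of pregnancy, with circles for run 1 and squares for run 2; lines join the mean of the 2 samples of each day and run. The highest sample in each panel is day 23 replicate 4 of run 2, at 2383, 178, 714 and 775 normalized counts.

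Across all probes, few values separated the days. In a fit of all 204 probes with limma, 0 of the 4 miRNAs passed an adjusted p of 0.05 for day 23 against day 14, where 0.49% of all probes did and 43 had an unadjusted p under 0.05. That share is 1 probe, which was lower on day 23. Against day 17 and day 20, 0 of the 4 passed as well, against 0.0% of all probes in each, with 24 and 10 probes under an unadjusted p of 0.05. For the slope over days, 0 of the 4 passed, against 0.49% of all probes, which is 1 probe with a falling slope. Before adjustment 48 probes had a p under 0.05 in that limma fit. The median difference of the 4 from day 14 was 1.04 log2 units, beside 0.00096 for all 204 probes. Every day 23 sample was above every day 14 sample for 1 of the 4 miRNAs and for 0.98% of all probes. Taken run by run, both day 23 samples were above both day 14 samples in both runs for 2 of the 4, miR-331-3p and miR-328-3p, and for 7.35% of all probes. The same held against day 17 for 1 of the 4, miR-328-3p, and for 1.47% of all probes, and against day 20 for 0 of the 4 and 1.47% of all probes. The 4 were chosen on these differences, so nothing is read from their counts. The comparisons with days 14, 17 and 20 share the same day 23 samples.

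**Figure D2:**
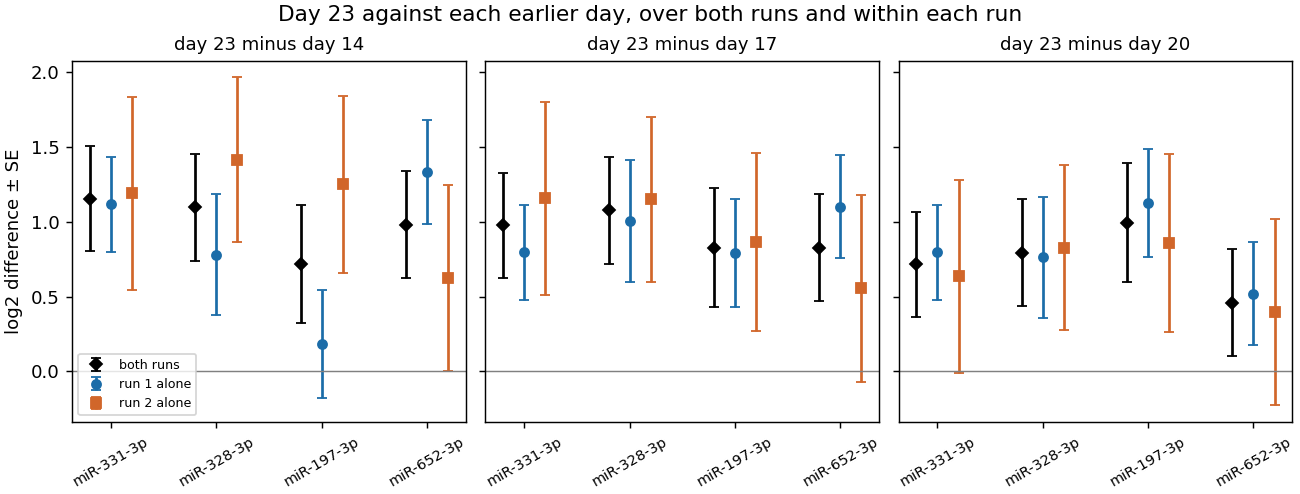
Log2 difference of day 23 from day 14, day 17 and day 20 for each miRNA, with SE bars, fitted over both runs (black diamonds) and in run 1 (circles) and run 2 (squares) alone. All points are above 0, and miR-197-3p against day 14 in run 1 alone is the nearest to it, at 0.19.

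The 2 NanoString runs offered a comparison that the choice of miRNAs did not use. miR-652-3p averaged 191 ± 85.0 normalized counts in run 1 (SD, n = 8) and 469 ± 197 in run 2, a log2 difference of 1.29 (SE 0.25, limma adjusted p = 2.0e-04). miR-197-3p averaged 151 ± 74.4 in run 1 and 311 ± 185 in run 2 (log2 1.00, SE 0.28, adjusted p = 0.0031 by limma). miR-328-3p averaged 36.9 ± 16.03 in run 1 and 69.1 ± 46.7 in run 2 (log2 0.79, SE 0.25, adjusted p = 0.0073 by limma). miR-331-3p averaged 738 ± 307 in run 1 and 979 ± 629 in run 2, with a log2 difference of 0.28 (SE 0.25) and a 95% interval from -0.23 to 0.79, and did not pass (adjusted p = 0.293 by limma). So 3 of the 4 were higher in run 2, where 83.3% of all probes differed between runs and 66.2% were higher in run 2. When each sample was first divided by its total, 0 of the 4 differed between runs and 54 of 204 probes did. Whether the difference of day 23 from day 14 changed between runs was tested as an interaction. For the 4 it ran from -0.71 (miR-652-3p) to 1.06 (miR-197-3p), with limma adjusted p from 0.424 to 0.975. Of all probes 0.0% passed that test, and 39 had an unadjusted p under 0.05. The 95% interval for miR-197-3p ran from -0.61 to 2.74. Single samples turned the direction of this interaction for 3 of the 4. For miR-652-3p it was -1.69 without day 14 replicate 3 and 0.27 without day 14 replicate 4, and for miR-331-3p, at 0.07 with all samples, it ran from -0.68 to 0.83. For miR-328-3p it was 0.63 with all samples and -0.07 without day 23 replicate 4. For miR-197-3p it stayed above 0, between 0.43 and 1.70, when 1 sample was left out, and was -0.21 with the background subtracted.

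The level of each miRNA was also set against the 38 probes whose name and number match no bovine gene. The median of those probes served as a proxy for signal without a target, though some of them may bind bovine RNA. It was 124 to 258 normalized counts in run 1 and 40.4 to 88.8 in run 2. miR-331-3p was above it in all 16 samples, by 1.76 to 10.99 times in run 1 and 9.36 to 26.9 times in run 2. miR-328-3p was below it in all 8 samples of run 1 and above it in 4 of 8 in run 2, at most 2.00 times, in day 23 replicate 4. The run 1 values of miR-328-3p therefore came from a range where 65.8% to 100% of the probes without a bovine gene gave more signal. miR-197-3p was above the median in 2 of 8 samples of run 1, day 14 replicate 2 and day 23 replicate 2, and in all 8 of run 2. miR-652-3p was above it in 5 of 8 samples of run 1 and in all 8 of run 2. In run 1 its day 14 samples were both below, at 0.40 and 0.71 times, and its day 20 and day 23 samples all above, at 1.48 to 2.76 times. The highest median of the probes without a bovine gene in run 1 was that of day 14 replicate 1, at 258. In run 2 the ratio of miR-652-3p was 3.71 and 17.2 on day 14, 7.08 and 7.60 on day 17, 7.29 and 8.47 on day 20, and 6.85 and 8.73 on day 23. It did not separate the days there.

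**Figure D3:**
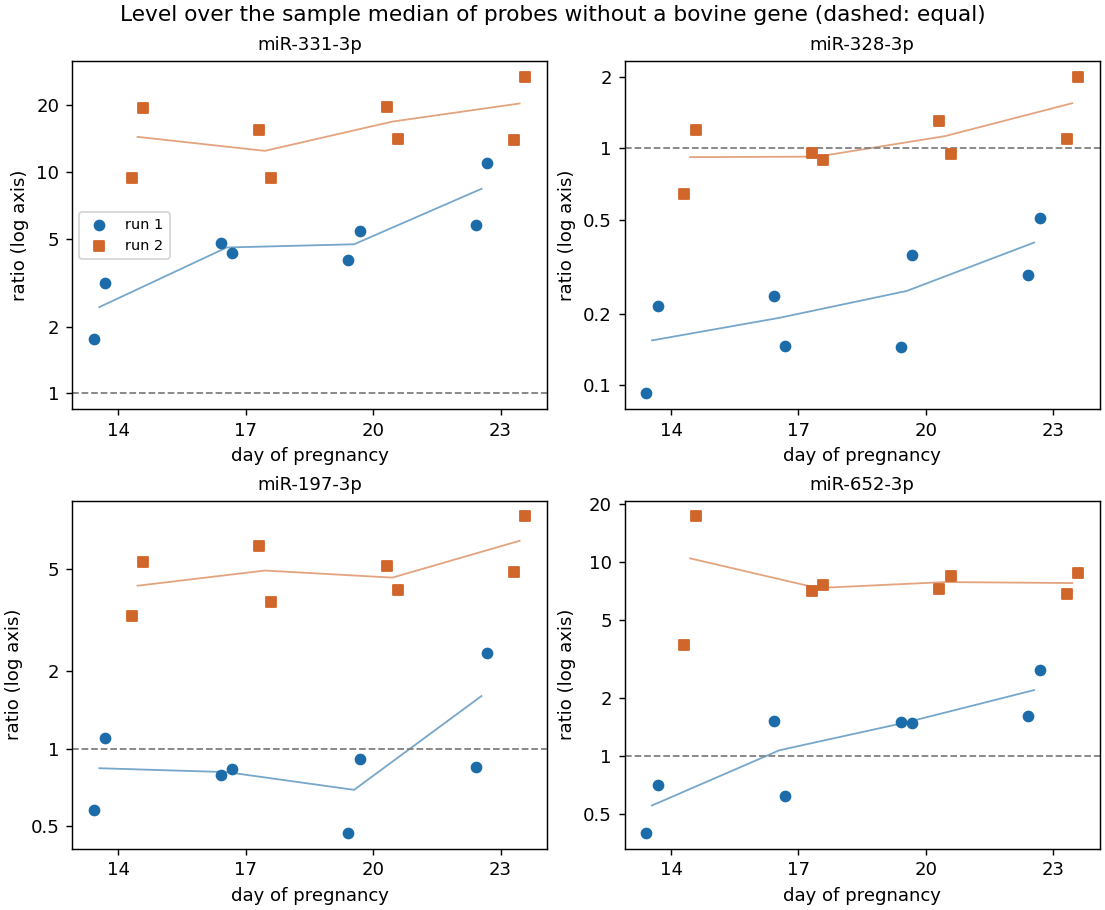
Level of each miRNA divided by the sample's median of 38 probes without a bovine gene, on a log axis, by day, with circles for run 1, squares for run 2 and lines through the mean ratios of each day and run; the dashed line marks equality. miR-331-3p lies above the line in all 16 samples and miR-328-3p below it in all 8 of run 1.

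Pairs of samples from one day and run differed more for these miRNAs than for most probes. The SD within day and run was 0.63 to 0.68 log2 units for the 4, beside a median of 0.42 over all probes, and they ranked from 11 to 19 among 204. A choice by large differences between days can favour probes of wide spread, so nothing is read from these ranks. In most pairs these differences had the same sign for the 4, and the share of all probes that moved alike was not counted. In run 2 all 4 miRNAs were higher in replicate 4 than in replicate 3 on days 14 and 23, and all 4 were lower in replicate 4 on days 17 and 20. In run 1 all 4 were higher in replicate 2 than in replicate 1 on days 14, 20 and 23, and on day 17 miR-331-3p and miR-197-3p were higher and the others lower. The sample totals, as log2 of the later over the earlier replicate on days 14, 17, 20 and 23, differed by 0.28, -0.11, -0.0046 and 0.39 in run 1. In run 2 they differed by 0.38, 0.058, 0.42 and 0.40. Totals thus went with the miRNAs on days 14 and 23, and against them on days 17 and 20 of run 2. The largest single gap was that of miR-652-3p on day 14, 1.96 log2 units between replicates 3 and 4, followed by miR-331-3p on day 23, 1.51 in the same direction, and by miR-331-3p and miR-197-3p on day 17, both -1.47.

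Each of the 4 miRNAs was highest, within either run, in the sample with the widest spacing of low values in that run. Low values in each column lay on an evenly spaced grid, and the spacing is taken here as what 1 count was worth after the authors' normalization. In run 1 the spacing was 0.665 to 0.970 normalized counts in 7 samples and 1.37 in day 23 replicate 2. In run 2 it was 0.798 to 1.77 in 7 samples and 2.91 in day 23 replicate 4. Day 23 replicates 1 and 3 had spacings of 0.688 and 1.32, within the range of the earlier days of their runs. The means of the 4 miRNAs, as log2 values less the mean of the run, were 1.04 in day 23 replicate 2 and 1.32 in day 23 replicate 4, and 0.25 and 0.05 in day 23 replicates 1 and 3. Part of the difference of day 23 from the earlier days thus lay in the same 2 samples as the largest spacings.

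Differences within the 8 pairs of samples of one day and run were set against the spacing, with Pearson's r of 0.59 to 0.81 for the 4. This comparison was not among those set beforehand. The miRNAs were chosen on day 23 values, and the day 23 pairs also hold the widest spacings. The p-values below are therefore a description and not an independent test. Each difference is the later less the earlier replicate number. That order is arbitrary, and r, rho and p can change if a pair is reversed. For miR-331-3p, Pearson's r between the log2 difference of the pair and the log2 ratio of its spacings was 0.81 (exact two-sided permutation p = 0.0142, adjusted p = 0.0285 over the 4, n = 8 pairs), and Spearman's rho was 0.95 (exact p = 0.00114). For miR-197-3p, r was 0.79 (exact p = 0.0138, adjusted p = 0.0285) and rho was 0.95 (exact p = 0.00114). For miR-328-3p, r was 0.73 (exact p = 0.0473, adjusted p = 0.0631) and rho was 0.71 (exact p = 0.0576). For miR-652-3p, r was 0.59 (exact p = 0.127, adjusted p = 0.127) and rho was 0.74 (exact p = 0.0458). Without the 2 pairs farthest from the median spacing ratio, both of day 23, r over the other 6 was 0.75, 0.70, 0.75 and 0.65 in the same order. Each run holds 4 pairs, too few for a value of its own. In run 2 the pair differed in the direction of the spacing in 4 of 4 pairs for each miRNA, and in run 1 in 2 of 4 for miR-331-3p and miR-197-3p and 3 of 4 for miR-328-3p and miR-652-3p. Over all 204 probes the median r was 0.11, and by r the 4 ranked 7 (miR-331-3p), 11 (miR-197-3p), 19 (miR-328-3p) and 40 (miR-652-3p) from the top.

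**Figure D4:**
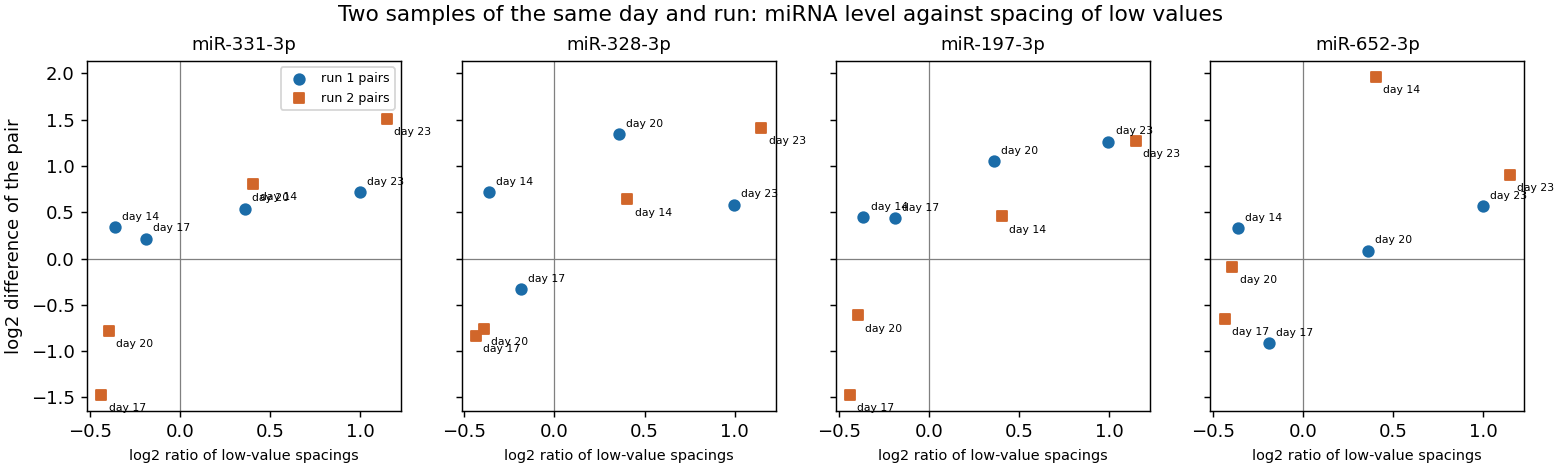
Each point is a pair of samples of the same day and run, with the log2 ratio of their spacings of low values (later over earlier replicate number) on the horizontal axis and the log2 difference of the miRNA on the vertical axis; circles are run 1 and squares run 2. Both day 23 pairs lie farthest right, at 1.00 and 1.15, and all 4 run 2 pairs of each miRNA lie with both differences of the same sign.

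Fits chosen after seeing the data give the day differences beside this. With the log2 spacing as a covariate, the difference of day 23 from day 14 was 0.79 for miR-331-3p (SE 0.27), 0.78 for miR-328-3p (SE 0.30), 0.35 for miR-197-3p (SE 0.34) and 0.77 for miR-652-3p (SE 0.35). Against day 17 the same fit gave 0.11 (SE 0.33), 0.33 (SE 0.37), -0.06 (SE 0.41) and 0.33 (SE 0.43) in that order. Day 17 spacings were 0.665 to 0.757 in run 1 and 0.798 to 1.08 in run 2. Those of day 23 were 0.688 to 1.37 and 1.32 to 2.91. Those of day 14 were 0.754 to 0.970 and 1.24 to 1.64, so the widest spacing of each run was on day 23 in this comparison as well. Spacing and day are thus partly confounded against day 14 and against day 17, and the fit cannot fully tell them apart. Without day 23 replicates 2 and 4, the samples of the largest spacing, the difference from day 14 was 0.60 for both miR-331-3p and miR-328-3p, 0.08 for miR-197-3p and 0.61 for miR-652-3p. Against day 20 it was then 0.16, 0.30, 0.36 and 0.09. The samples left out were the highest of their run for each of the 4 miRNAs, so that leaving them out lowers every day 23 difference by construction.

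Over both runs the correlations among miR-331-3p, miR-328-3p and miR-197-3p were higher than those with miR-652-3p, but this order did not hold in run 1. After the mean of each run was subtracted, Pearson's r over the 16 samples was 0.91 between miR-331-3p and miR-328-3p (Spearman 0.86), 0.86 between miR-328-3p and miR-197-3p (Spearman 0.74) and 0.82 between miR-331-3p and miR-197-3p (Spearman 0.74). miR-652-3p had r of 0.75 with miR-331-3p (Spearman 0.68), 0.71 with miR-328-3p (Spearman 0.67) and 0.46 with miR-197-3p (Spearman 0.29). In run 1 alone, miR-331-3p had r of 0.82 with miR-328-3p, 0.77 with miR-652-3p and 0.61 with miR-197-3p, and miR-328-3p had 0.73 with miR-197-3p and 0.68 with miR-652-3p. In run 2 alone, r was 0.95 to 0.97 among the first 3 and 0.70 to 0.77 with miR-652-3p. Once day means were also subtracted, which removes the day pattern used to choose them, r was 0.94 between miR-331-3p and miR-197-3p, 0.88 between miR-331-3p and miR-328-3p, 0.88 between miR-328-3p and miR-197-3p, and 0.52 to 0.67 for miR-652-3p with the others. These values describe samples that share a run, a hybridisation and a scaling, and carry no test. The median r of each miRNA with all other probes was between -0.04 and 0.08.

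The probes most like each miRNA came from several families. miR-331-3p was most like miR-181c-5p (r = 0.96, Spearman 0.91), miR-181a-5p (r = 0.94, Spearman 0.91) and miR-423-3p (r = 0.94, Spearman 0.92). miR-328-3p was most like miR-331-3p, miR-423-5p (r = 0.91, Spearman 0.87) and miR-181c-5p (r = 0.89, Spearman 0.81). miR-197-3p was most like miR-92a-3p (r = 0.86, Spearman 0.91), miR-328-3p and the probe shared by miR-193a-5p and miR-193b-5p (r = 0.85, Spearman 0.85). miR-652-3p was most like let-7d-5p (r = 0.87, Spearman 0.95), let-7b-5p (r = 0.85, Spearman 0.84) and miR-181a-5p (r = 0.84, Spearman 0.81). Within single runs, the lowest of these r values was 0.73, for miR-197-3p with miR-328-3p in run 1. With the sample median of probes that have a bovine gene subtracted first, each of these probes ranked among the 4 most like its miRNA. Separately, without that median step but with day and run means subtracted, each ranked among the 9 most like it.

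The other arm of the miR-197 hairpin, miR-197-5p, was the only second arm of the 4 measured, and its mean was higher on day 23 than on day 14 in both runs, like that of miR-197-3p. The ratio of the 2 means was 1.22 for the 5p arm and 1.23 for the 3p arm in run 1, and 1.64 and 2.59 in run 2. From day 14 to day 23 its daily means were 81.0 ± 15.3, 106 ± 31.1, 107 ± 23.3 and 118 ± 36.9 normalized counts (SD, n = 4 each). Its r with miR-197-3p was 0.25 (Spearman 0.25) over the 16 samples with run means subtracted, -0.42 in run 1 and 0.58 in run 2. The run 1 ratio of 1.22 and the run 1 r both come from 5p levels below the median of probes without a bovine gene in all 8 samples. The 3p arm was above that median in only 2 of the 8, so nothing is read from the likeness of the arms in run 1. In day 23 replicate 4, where miR-197-3p was at 714, miR-197-5p was at 146, below the 154 of day 23 replicate 3.

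Markers of other cell types are given beside these levels; 0 of their probes were called for day 23 against day 14, where 0.49% of all probes were, so nothing is read from that count. The erythrocyte marker miR-451a, 1 measured of 3 listed, was at 206 to 1877 normalized counts on day 14, 116 to 937 on day 17, 134 to 566 on day 20 and 132 to 367 on day 23, a log2 difference of -1.04 from day 14. The endothelial marker miR-126-3p, 1 measured of 2, was at 7633 to 29140 on day 14, 8951 to 29256 on day 17, 8683 to 29618 on day 20 and 7318 to 16446 on day 23, a log2 difference of -0.46 from day 14. The summed leukocyte list, 6 of 6 measured, ran from 997 to 4169 on day 14, 914 to 2127 on day 17, 1452 to 3288 on day 20 and 1126 to 1940 on day 23, and 2 of its 6 probes had higher values on day 23 than on day 14. The summed platelet list, 4 of 4 measured and partly shared with the others, ran from 9191 to 36034 on day 14 and 10838 to 21453 on day 23, and the smooth muscle pair from 2471 to 8634 and from 4308 to 9075. The epithelial marker miR-141-3p, 1 measured of 5, was at 42.8 to 56.9 on day 14 and 45.7 to 87.3 on day 23. Its highest value on any day was 87.3, so it lay below the median of probes without a bovine gene in every run 1 sample. With run means subtracted, the mean of the 4 miRNAs over the 16 samples had r of -0.59 with miR-126-3p, -0.50 with the platelet list, -0.21 with the leukocyte list, -0.07 with the smooth muscle pair, -0.02 with miR-451a and 0.56 with miR-141-3p. No marker was listed at 0, and the part of these cell types in the levels of the 4 miRNAs was not tested.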

How the data were processed

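One deposited table gave normalized counts of 204 miRNA probes in 16 samples, 175197 to 536516 per sample. Its values are a signal that the authors normalized, per the file's name. The software, probe panel, background correction and any filter are not stated in them. Low values (the 80 lowest of each column) lay on an even grid in all 16 columns, within 0.15 of a spacing, but the grid passed through 0 in only 5, so original counts were not recovered and no counting interval is given. Values were analysed as log2(normalized count + 1) with limma 3.58.1 in R 4.3.3, over all probes and samples, with day as a factor (or a number, for the slope) and run as a covariate; p-values were adjusted by Benjamini-Hochberg over all probes. The fit was tested on simulated data. The miRNAs, lists and alternatives were chosen with earlier results of these data known. By rule, the 4 miRNAs and, for each, the 3 probes of highest Pearson r were named, and marker probes where given beside a result. Of 204 probes, 155 had a bovine RefSeq gene of the same name, 11 one of the same number and 38 neither. Deviations from the day means of samples with one replicate number correlated in 24 of 24 pairs (r from 0.19 to 0.81); run 1 held replicates 1 and 2, and run 2 replicates 3 and 4. With run means also subtracted, the 2 samples of a day and run mirror each other, which leaves 12 distinct r, of which 7 were over 0.1 (-0.55 to 0.56). The numbers also mark the run, which was in the fit.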

Additional observations from a re-analysis of the deposited data

Results flagged for a closer look

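Outlying samples were looked for in each day's 4 normalized counts, 16 groups in all, by Dixon's test, in which the gap of the most extreme sample to its neighbour is divided by the range. A quotient above Dixon's 95% critical value was reached in 3 of the 16. The nominal chance rate is about 1 in 20 for independent groups. These groups share samples over 4 correlated miRNAs chosen on their values, so no excess is read from the count. miR-328-3p was high in day 23 replicate 4, at 177.63 against 66.3 for the next sample (quotient 0.831). miR-197-3p was high in day 17 replicate 3, at 420.15 against 151 for the next (quotient 0.835). miR-652-3p was high in day 14 replicate 4, at 724.84 against 185 for the next (quotient 0.868). On the log2 scale none of the 16 groups passed, the 3 quotients being 0.704, 0.702 and 0.701. All 3 samples are of run 2. Each day's group mixes both runs, and run 2 was higher for these 3 miRNAs.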

How the results depend on the processing

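The miRNAs were chosen for day differences and slopes above 0, and many alternatives cannot move these, so their agreement in sign is not counted. Values below 0 were those of miR-197-3p against day 17 with the spacing as a covariate (-0.059) and of its slope without the sample of the largest spacing in each run (-0.0084 per day). With the spacing as a covariate, the differences from day 17 also moved to 0.11 (miR-331-3p) and 0.33 (miR-328-3p), a comparison where spacing and day are partly confounded. With the median of probes without a bovine gene subtracted and values floored at 1, they moved to 2.26 (miR-328-3p), 2.34 (miR-197-3p) and 2.37 (miR-652-3p) against day 17, to 1.51 (miR-197-3p) and 3.93 (miR-652-3p) against day 14, to 2.34 (miR-197-3p) against day 20, and the slopes to 0.15 (miR-197-3p) and 0.45 (miR-652-3p) per day; the floor sets many of these values. Leaving out 1 sample gave 0.87 to 1.41 (miR-331-3p), 0.80 to 1.31 (miR-328-3p), 0.45 to 0.99 (miR-197-3p) and 0.69 to 1.40 (miR-652-3p) against day 14; the first 3 were lowest without day 23 replicate 4. Differences between runs lost their call under 3 scalings and with the spacing as a covariate: miR-328-3p at 0.010 (total), 0.071 (the 100 most abundant probes), 0.015 (median of probes with a bovine gene) and 0.026 (covariate), miR-197-3p at 0.20, 0.26, 0.22 and 0.091, and miR-652-3p at 0.49, 0.55, 0.51 and 0.78. miR-331-3p, not called, was then at -0.52, -0.46, -0.50 and -0.61. Leaving out 1 sample kept the 3 calls. Scaling by total moved the median day 23 minus day 14 difference of all probes to -0.30, and by the 100 most abundant to -0.12; the 4 were then 0.41 to 0.85 and 0.60 to 1.03. Calls among all probes numbered 170 between runs and 54, 61 and 54 under the 3 scalings. For day 23 against day 14 there was 1 call, with 0 to 40 under alternatives (40 with run 1 alone, 10 without day 23 replicate 3), and for the slope 1, with 0 to 19 (19 scaled by total). For the interaction with run there were 0, with up to 4 (background subtracted); leaving out 1 sample turned its direction for miR-331-3p, miR-328-3p and miR-652-3p. With the replicate number as a block in place of run, no call on the 4 changed: day 23 minus day 14 was 1.15 for miR-331-3p. The filter on low values removed miR-328-3p, which then has no value. The causes of these changes were not tested. Depth could not be stated, and low values limit miR-328-3p most.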
